A study of Canis lupus familiaris with 8 samples.

Results

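IL7R, IL2RA, IL2RB, IL2RG and IL4R encode chains of the cytokine receptors that signal through the common gamma chain, and their transcripts were followed in canine TCRαβ+ T cells. They were taken as the rows with these symbols in the gene list of dog 2, which gives 5 of the 20257 genes counted. In the file they are ENSCAFG00000018752 (IL7R), ENSCAFG00000005210 (IL2RA), ENSCAFG00000001511 (IL2RB), ENSCAFG00000028978 (IL2RG) and ENSCAFG00000017447 (IL4R). The T cells came from venous blood of 4 healthy Beagles, all with routine vaccinations. They were a female of 5 years (dog 1), males of 7 years (dogs 2 and 3) and a male of 9 years (dog 4). Each dog gave 1 library of 5' single-cell gene expression and 1 V(D)J library, made from cells that had been sorted by an antibody against canine TCRαβ and then cryopreserved. The dog was the replicate, so n = 4, and neither age nor sex was tested.

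The common gamma chain, the product of IL2RG, is the subunit shared by the receptors for IL-2, IL-4, IL-7, IL-9, IL-15 and IL-21. IL-7 receptor is the common gamma chain with the chain encoded by IL7R and maintains resting naive and memory T cells. IL2RB encodes the beta chain through which IL-2 and IL-15 signal, IL2RA the alpha chain (CD25) that gives regulatory T cells a high affinity for IL-2, and IL4R the chain that binds IL-4. The receptors act through the kinases JAK1 and JAK3 and mainly through STAT5 or, for IL-4, STAT6.

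Counts were of unique molecular identifiers (UMIs), which mark single captured transcripts. After quality control 31909 cells were kept (7096 to 8454 per dog, median 3599 to 3931.5 UMIs per cell). Pairs of libraries shared 87 to 120 of their 7428 to 8873 barcodes. Cells with a CD4 UMI and no CD8A UMI were CD4 single-positive (CD4 sp), in all 13247, and cells with a CD8A UMI and no CD4 UMI were CD8A sp, in all 6427. A cell was CCR7+, FOXP3+ or GZMB+ with at least 1 UMI of that gene, so a negative cell may carry a transcript that was not captured. UMIs were summed per dog and gate, and levels are counts of a gene per 1000000 UMIs of such a sum (CPM), as mean ± SD over the dogs. Differences were tested with edgeR's quasi-likelihood test across all genes with the dog as a block, and a gene passed with a Benjamini-Hochberg adjusted p under 0.05. The sums on both sides of a gate come from 1 library per dog, so differences were tested within dogs. The test shares information on spread across genes, so a p-value does not rest on the spread of that gene between dogs alone. Where a gate difference was compared between the lineages (an interaction), all sums of a dog shared 1 dog term.

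The gates were checked by marker lists. All 5 T cell markers were detected, with summed levels of 2703 to 3166 CPM in CD4 sp and CD8A sp cells. The naive genes LEF1 and TCF7 rose in CCR7+ cells of both lineages, the regulatory genes CTLA4, IKZF2, CCR4, TNFRSF4 and TNFRSF18 rose in FOXP3+ CD4 sp cells (5 of 5), and the cytotoxic genes rose in GZMB+ cells (8 of 8 in CD8A sp, 7 of 8 in CD4 sp). Of the B cell list, CD79A stood at 9179.5 to 10533 CPM in both lineages, while MS4A1 and CD79B did not exceed 2.91 CPM and PAX5 was at 0. Of the myeloid list, CSF1R and S100A12 were at 0, LYZ stayed under 1 CPM and ITGAM was at 0.211 to 1.99 CPM in CD4 sp and 84.9 to 268 CPM in CD8A sp cells. Of the platelet list, PPBP was at 0 and ITGA2B did not exceed 1.74 CPM in both lineages. More than 1 productive TRB, a mark of possible doublets, was seen in 3.8% ± 0.85 (SD, n = 4) of the CD4 sp gate and 4.18% ± 2.06 of the CD8A sp gate. Doublets were not removed.

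IL7R was captured in 73.2% of the kept cells (96861 UMIs), IL2RG in 76.4% (61907 UMIs), IL2RB in 45.3% (39727 UMIs), IL4R in 18.7% (7651 UMIs) and IL2RA in 3.90% (1514 UMIs). IL2RA is therefore counted in few molecules wherever the gate is small.

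All 5 receptor genes differed between CD4 sp and CD8A sp cells, and IL2RB was the member that was lower in CD4 sp cells. IL7R stood at 633, 978, 839.6 and 857 CPM in CD4 sp cells of dogs 1 to 4 and at 243, 517, 508 and 313 CPM in CD8A sp cells. CD4 sp cells were higher in every dog and the ranges did not overlap (log2 fold change 1.12, SE 0.12, edgeR adjusted p = 0.000292). In this comparison 27.1% of 10132 genes passed.

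IL2RB stood at 76.7, 180.1, 173 and 238 CPM in CD4 sp cells of dogs 1 to 4 and at 615, 771, 829.5 and 856 CPM in CD8A sp cells. This was the reverse of IL7R, again without overlap (log2 fold change -2.28, SE 0.16, edgeR adjusted p = 3.2e-05). IL2RB is the chain that also serves IL-15, a cytokine known for sustaining CD8 memory and cytotoxic lymphocytes.

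IL4R stood at 68.7, 79.8, 84.9 and 46.8 CPM in CD4 sp cells and at 16.3, 27.8, 31.1 and 14.5 CPM in CD8A sp cells of dogs 1 to 4. Its difference was 1.64 on the log2 scale (SE 0.10, edgeR adjusted p = 1.6e-05), with no overlap, although dog 4 was the lowest of the CD4 sp values. IL2RA stood at 8.71, 11.7, 9.36 and 9.88 CPM against 2.83, 5.72, 5.00 and 2.61 CPM (log2 fold change 1.29, SE 0.19, edgeR adjusted p = 0.00172), and every CD4 sp value lay above every CD8A sp value. IL2RG, the shared chain, differed least, at 445, 527, 500.1 and 592 CPM against 351, 426, 380.0 and 409.7 CPM (log2 fold change 0.41, SE 0.05, edgeR adjusted p = 0.000433).

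The lineages hold different mixtures of CCR7+, FOXP3+ and GZMB+ cells. Among cells with none of these 3 transcripts, where 12.6% of 9208 genes passed, IL7R was at 881 ± 177 CPM in CD4 sp and 640 ± 225 CPM in CD8A sp cells. The log2 fold change was 0.51 (SE 0.09, edgeR adjusted p = 0.00307), higher in CD4 sp cells in 4 of 4 dogs. There IL2RB (log2 fold change -1.54, edgeR adjusted p = 1.6e-08), IL2RG (0.36, 0.00153) and IL4R (0.85, 0.00577) kept their directions and passed, and IL2RA did not pass (0.60, 0.257). Without dog 3 IL2RA passed, at 1.24 with an edgeR adjusted p of 0.0158.

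**Figure D1:**
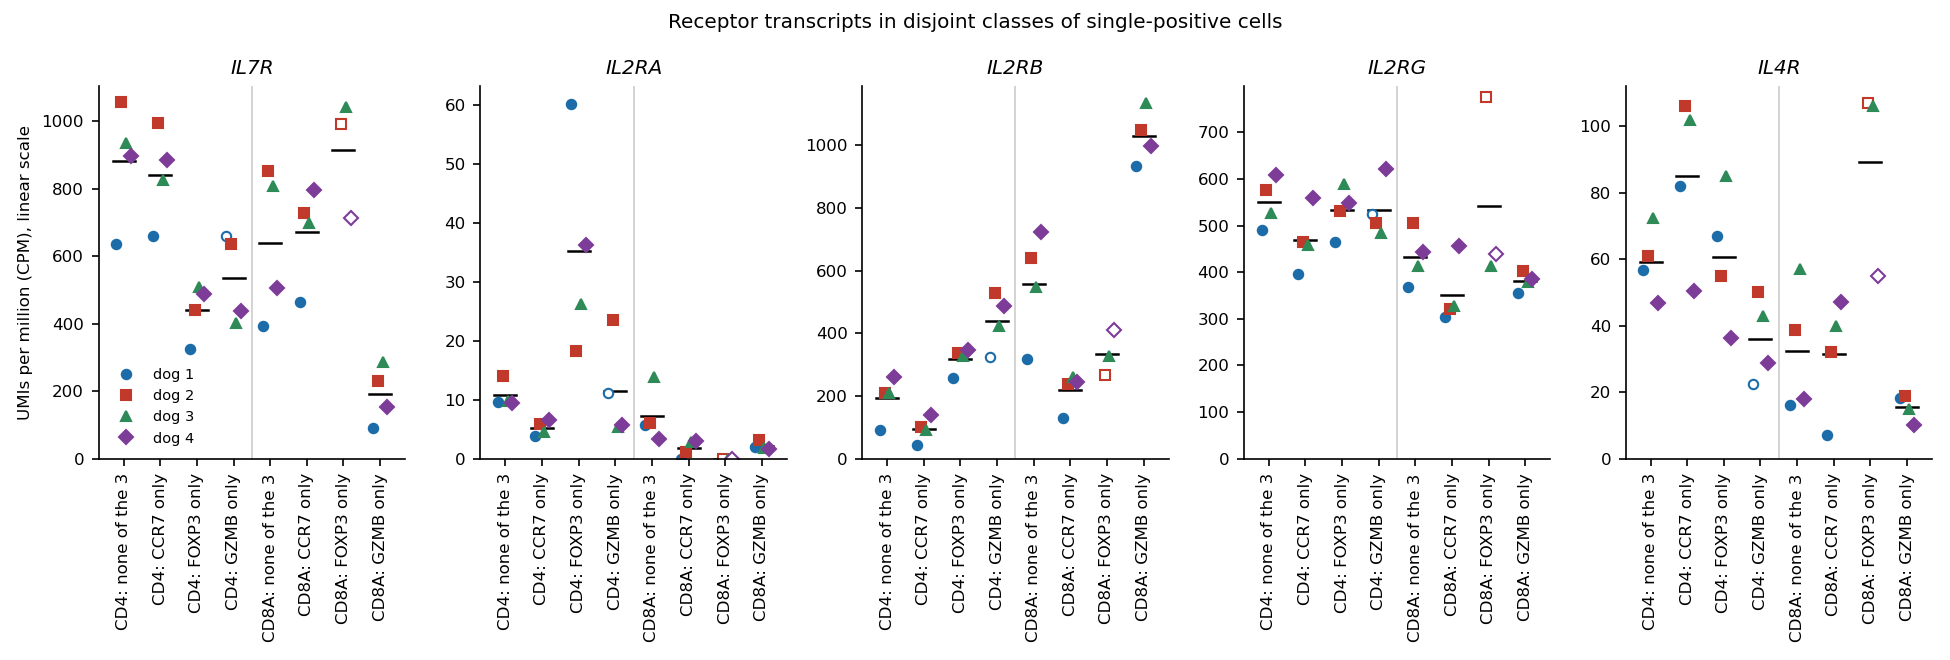
Level of each receptor gene (CPM, linear axes from 0, a separate scale per gene) in disjoint classes of CD4 sp and CD8A sp cells that carry CCR7 only, FOXP3 only, GZMB only or none of the 3. Points are dogs, open points rest on fewer than 20 cells and bars are means. IL7R is lowest and IL2RB highest in CD8A sp cells with GZMB only. The mean of IL2RA is highest in CD4 sp cells with FOXP3 only.

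Cells were sorted by the 3 transcripts into disjoint classes, and the classes are listed by their mean IL7R level. IL7R was at 881 ± 177 CPM in CD4 sp cells with none of the 3, 841 ± 139 CPM with CCR7 only, 671 ± 144 CPM in CD8A sp cells with CCR7 only and 640 ± 225 CPM with none of the 3. It was then 534 ± 132 CPM in CD4 sp cells with GZMB only, 441 ± 82.5 CPM with FOXP3 only and 190.0 ± 85.9 CPM in CD8A sp cells with GZMB only. Neighbours in this order held within every dog for CD4 sp CCR7 only over CD8A sp CCR7 only and for CD4 sp FOXP3 only over CD8A sp GZMB only. The other neighbours were in this order in 2 or 3 of 4 dogs and did not differ beyond their spread. CD8A sp cells with FOXP3 only (915 ± 176 CPM) rested on 36 cells of 3 dogs and are left out of this order. CD4 sp cells with GZMB only are kept in it, with 17 cells in the dog that had fewest. With cells thinned to 2000 UMIs, CD4 sp cells with CCR7 only (847 ± 149 CPM) stood above those with none of the 3 (823 ± 134 CPM).

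IL2RB ran from 1028 ± 84.7 CPM in CD8A sp cells with GZMB only over 557 ± 175 CPM (CD8A sp, none of the 3), 441 ± 88.5 CPM (CD4 sp, GZMB only), 318 ± 40.7 CPM (CD4 sp, FOXP3 only), 218 ± 59.4 CPM (CD8A sp, CCR7 only) and 193 ± 70.9 CPM (CD4 sp, none of the 3) to 93.7 ± 40.3 CPM in CD4 sp cells with CCR7 only. The first class lay above the next in 4 of 4 dogs, and the last lay below its neighbour in 4 of 4. IL2RA was at 35.3 ± 18.2 CPM in CD4 sp cells with FOXP3 only (68 UMIs) and at 1.73 to 11.5 CPM in the other classes with cells of all dogs. It lay above the next class, CD4 sp with GZMB only, in 3 of 4 dogs, and dog 2 had 18.3 against 23.6 CPM. Among classes with cells of all dogs, mean IL4R was highest in CD4 sp cells with CCR7 only (85.0 ± 25.3 CPM) and lowest in CD8A sp cells with GZMB only (15.5 ± 4.03 CPM). In dog 1 the latter (18.3 CPM) lay above CD8A sp cells with CCR7 only (7.21 CPM) and with none of the 3 (16.1 CPM). IL2RG kept within 351 ± 70.1 and 551 ± 51.7 CPM in the classes with cells of all dogs. With thinned cells the highest of these classes was the same for IL2RA, IL2RB, IL2RG and IL4R.

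CCR7, the chemokine receptor that leads T cells into lymph nodes, marks naive and central memory cells. Among CD4 sp cells, IL7R did not pass the test, while IL2RB and IL2RA were lower and IL4R higher in CCR7+ cells. IL7R was at 644, 972, 805 and 863 CPM in CCR7+ cells of dogs 1 to 4 and at 623, 984, 869 and 854 CPM in CCR7- cells. Dogs 1 and 4 were slightly higher and dogs 2 and 3 lower in CCR7+ cells, with a log2 fold change of 0.02 (SE 0.03, edgeR adjusted p = 0.766).

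The 4 other members passed in CD4 sp cells, where 23.1% of 9676 genes passed. IL2RB was at 48.1, 110.3, 105 and 146 CPM in CCR7+ cells against 104, 232, 230.3 and 274 CPM in CCR7- cells (log2 fold change -1.02, SE 0.04, edgeR adjusted p = 6.8e-10). IL4R was at 81.1, 107, 99.9 and 50.1 CPM against 56.9, 59.6, 72.4 and 45.5 CPM (0.56, SE 0.08, 7.4e-05), and IL2RA at 5.47, 7.53, 6.61 and 7.23 CPM against 11.8, 14.7, 11.6 and 10.9 CPM (-0.86, SE 0.13, 0.000181). IL2RG differed by -0.19 (SE 0.03, 0.000619). Each of the 4 had the same direction in every dog, and only the IL2RA ranges did not overlap. These calls rest on comparing within dogs: without the dog as a block, 5 genes of all passed and none of the members (edgeR adjusted p = 0.293 for IL2RB, 0.347 for IL4R, 0.118 for IL2RA and 0.437 for IL2RG; 0 of 5 members, against 4 with the block). With cells thinned to 2000 UMIs, IL2RA did not pass (-0.53, edgeR adjusted p = 0.375). CCR7+ CD4 sp cells had medians of 3841 to 4330 UMIs and CCR7- cells 3634.5 to 4065.5 UMIs. More than 1 TRB was seen in 5.26% ± 1.05 of CCR7+ and 2.72% ± 0.40 of CCR7- CD4 sp cells. The part of doublets in these differences was not tested.

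In CD8A sp cells, IL7R rose in CCR7+ cells and IL2RB fell. IL7R was at 441, 669, 709 and 709 CPM in CCR7+ cells of dogs 1 to 4 and at 203, 480.3, 465 and 286 CPM in CCR7- cells. Every dog was higher in CCR7+ cells, although the CCR7+ level of dog 1 lay below the CCR7- levels of dogs 2 and 3 (log2 fold change 0.93, SE 0.10, edgeR adjusted p = 3.7e-07). In this comparison 16.8% of 8231 genes passed.

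IL2RB was at 178, 328, 336 and 311 CPM in CCR7+ CD8A sp cells against 705, 877, 936 and 893 CPM in CCR7- cells, without overlap (log2 fold change -1.45, SE 0.08, edgeR adjusted p = 1.6e-11). IL4R (0.49, SE 0.20, edgeR adjusted p = 0.0995) and IL2RG (-0.09, SE 0.07, 0.470) did not pass, and IL2RA, with 21 UMIs in CCR7+ cells, was too low to be tested. CCR7+ cells were deeper, with medians of 4181 to 5061.5 UMIs against 3452.5 to 3856 UMIs. More than 1 TRB was seen in 6.89% ± 2.39 of CCR7+ and 3.79% ± 1.99 of CCR7- CD8A sp cells. The part of doublets in these differences was not tested.

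The CCR7 difference of IL7R was itself different in the lineages. The log2 fold change was lower in CD4 sp than in CD8A sp cells by an interaction of -0.89 (SE 0.16, edgeR adjusted p = 0.00358), in a test that 2.46% of 9989 genes passed and in which IL7R was the 1 member to pass. The sums of a dog shared 1 dog term in this fit, so its p-value does not measure the spread of the interaction between dogs. Without the dog as a block the interaction was -0.88 (edgeR adjusted p = 0.489). Most GZMB+ CD8A sp cells (3731 of 3931) carried neither CCR7 nor FOXP3. When cells with CCR7 only were set against cells with none of the 3 transcripts, an alternative chosen after the data had been seen, IL7R in CD8A sp cells was at 464, 728, 697 and 796 CPM against 393, 851, 808 and 507 CPM. It was higher in dogs 1 and 4 and lower in dogs 2 and 3 (log2 fold change 0.19, SE 0.10, edgeR adjusted p = 0.243, in a comparison that 12.5% of 7012 genes passed). The value in CD4 sp cells was -0.02 (edgeR adjusted p = 0.708), and the interaction was -0.19 (edgeR adjusted p = 0.738), in a test that 0.368% of 9247 genes passed. IL2RB stayed lower with CCR7 only in both lineages, by -1.20 in CD8A sp (edgeR adjusted p = 9.2e-11) and by -1.02 in CD4 sp cells (edgeR adjusted p = 1.4e-11).

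**Figure D2:**
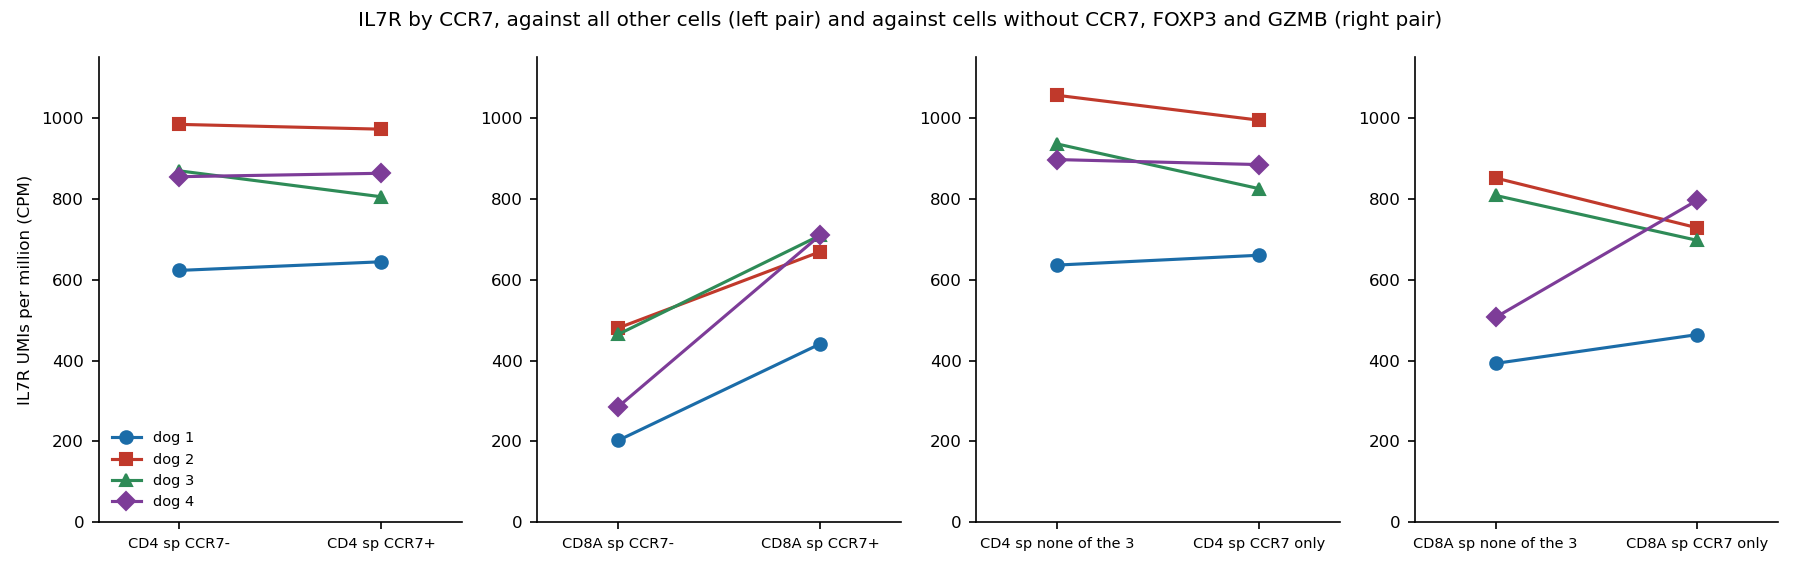
IL7R level (CPM, linear axes from 0) of each dog, joined by a line, in CCR7- and CCR7+ cells (left panels) and in cells with none of CCR7, FOXP3 and GZMB and with CCR7 only (right panels), for CD4 sp and CD8A sp cells. All 4 lines rise from CCR7- to CCR7+ in CD8A sp cells, but 2 of 4 rise when both sides lack GZMB and FOXP3.

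FOXP3 is the transcription factor of regulatory T cells, which are known for high CD25 and low IL-7 receptor on the surface. The 622 FOXP3+ CD4 sp cells had less IL7R and more IL2RA and IL2RB than the FOXP3- cells. IL7R was at 259.9, 425, 490.1 and 468 CPM in FOXP3+ cells of dogs 1 to 4 and at 647, 1019, 873 and 879 CPM in FOXP3- cells. All FOXP3+ values lay below all FOXP3- values (log2 fold change -1.06, SE 0.08, edgeR adjusted p = 4.6e-10). In this comparison 13.1% of 9543 genes passed.

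IL2RA was at 58.6, 26.4, 32.5 and 32.0 CPM in FOXP3+ cells (114 UMIs in all) and at 6.85, 10.6, 7.15 and 8.58 CPM in FOXP3- cells. The ranges did not overlap and dog 1 was the highest of the FOXP3+ values (log2 fold change 2.09, SE 0.24, edgeR adjusted p = 4.6e-07). IL2RB was at 259.9, 340.1, 317 and 319 CPM against 69.9, 168, 159.6 and 233 CPM, also without overlap (1.02, SE 0.12, edgeR adjusted p = 5.4e-07). Without the dog as a block IL2RB had an edgeR adjusted p of 0.0569. IL2RG (0.04, SE 0.07, edgeR adjusted p = 0.750) and IL4R (-0.20, SE 0.11, edgeR adjusted p = 0.253) did not pass.

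FOXP3+ cells were deeper than FOXP3- cells (medians of 4633.5 to 4879 against 3726 to 4072.5 UMIs), and 6.20% ± 1.63 of them had more than 1 TRB against 3.68% ± 0.85. A UMI of IL2RA was found in 14.0% ± 2.49 of FOXP3+ and 2.93% ± 0.79 of FOXP3- cells, and with cells thinned to 2000 UMIs and gated again in 9.12% ± 4.88 and 1.36% ± 0.30. In GZMB+ CD8A sp cells (medians of 3313 to 3815 UMIs) the share was 0.830% ± 0.403. IL2RA without IL7R was seen in 7.65% ± 1.25 of FOXP3+ and 0.508% ± 0.207 of FOXP3- cells (thinned, 5.87% ± 2.46 and 0.566% ± 0.280). IL7R was still captured in 58.3% ± 5.40 of FOXP3+ cells, against 84.2% ± 3.42 of FOXP3- cells (thinned, 42.3% ± 8.03 and 70.6% ± 4.32). Markers of other cell types moved with FOXP3 too. LYZ, a lysozyme of myeloid cells, and MS4A1, a B cell surface protein, rose in FOXP3+ cells (log2 fold changes 3.64 and 2.38, edgeR adjusted p = 0.000419 and 0.000445), and CD79A fell (-0.28, edgeR adjusted p = 0.00255). LYZ and MS4A1 were near the floor, at 0.369 to 0.883 and 0.516 to 2.91 CPM in all CD4 sp cells, so their fold changes rest on few UMIs. The myeloid list summed to 1.88 to 7.12 CPM in FOXP3+ and 0.510 to 2.34 CPM in FOXP3- cells. ITGAM, CSF1R and S100A12 were at 0 in FOXP3+ cells, so the sum there was LYZ alone. The B cell list summed to 7449 to 8485 CPM in FOXP3+ and 9278 to 10615 CPM in FOXP3- cells, with PAX5 at 0 in both. Their part in the FOXP3 differences was not tested.

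Against CD4 sp cells with none of the 3 transcripts, cells with FOXP3 only kept these differences, with log2 fold changes of -0.99 for IL7R (edgeR adjusted p = 6.2e-11), 1.59 for IL2RA (edgeR adjusted p = 0.000147) and 0.73 for IL2RB (edgeR adjusted p = 2.2e-06), where 9.13% of 8752 genes passed. In CD8A sp cells FOXP3 was captured in 1, 19, 50 and 16 cells of dogs 1 to 4, too few for a test. IL2RB was there at 264, 345, 447 and 552 CPM in FOXP3+ and 616, 778, 842 and 859 CPM in FOXP3- cells, lower in every dog, and the difference from CD4 sp cells was not tested.

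GZMB encodes the serine protease granzyme B of cytotoxic granules. GZMB+ cells had less IL7R and more IL2RB than GZMB- cells in both lineages. In CD8A sp cells, IL7R was at 99.5, 259, 334 and 168 CPM in GZMB+ cells of dogs 1 to 4 and at 415, 810.2, 774 and 541 CPM in GZMB- cells, without overlap (log2 fold change -1.64, SE 0.10, edgeR adjusted p = 7.2e-08). In this comparison 18% of 8958 genes passed.

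IL2RB was at 916, 997, 1078 and 977 CPM in GZMB+ CD8A sp cells against 257, 515, 448 and 666 CPM in GZMB- cells. The GZMB+ values lay close together and above all GZMB- values (log2 fold change 1.08, SE 0.13, edgeR adjusted p = 5.9e-05). A UMI of IL2RB without one of IL7R was seen in 63.4% ± 9.75 of GZMB+ and 23.9% ± 7.58 of GZMB- cells (thinned, 62.0% ± 5.08 and 29.6% ± 7.71), although GZMB+ cells were the shallower (medians of 3313 to 3815 against 4060 to 4240 UMIs).

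IL4R was at 18.9, 19.0, 16.7 and 10.2 CPM in GZMB+ and 13.2, 37.7, 53.0 and 21.4 CPM in GZMB- CD8A sp cells, lower in 3 of 4 dogs and higher in dog 1 (log2 fold change -1.14, SE 0.21, edgeR adjusted p = 0.00167, and 0.0907 without the dog as a block). IL2RA was at 1.95, 3.68, 1.88 and 2.03 CPM against 3.88, 8.04, 9.80 and 3.52 CPM, from 35 and 73 UMIs (-1.51, SE 0.33, edgeR adjusted p = 0.00549). It did not pass with DESeq2 (-1.41, adjusted p = 0.0825) or without dog 3 (-0.999, edgeR adjusted p = 0.0926). IL2RG did not pass (-0.14, SE 0.06, edgeR adjusted p = 0.123). ITGAM, on the myeloid list and also known from cytotoxic lymphocytes, was at 143 to 380.0 CPM in GZMB+ and 15.5 to 90.9 CPM in GZMB- cells, and its part in these differences was not tested. Of the other myeloid markers, CSF1R and S100A12 were at 0 on both sides and CD14 was not among the genes counted. LYZ was at 0 to 0.406 CPM in GZMB+ and 0.320 to 0.775 CPM in GZMB- cells. Against CD8A sp cells with none of the 3 transcripts, where 15.1% of 8650 genes passed, cells with GZMB only had log2 fold changes of -1.77 for IL7R (edgeR adjusted p = 1.6e-09), 0.90 for IL2RB (edgeR adjusted p = 4e-05) and -1.19 for IL4R (edgeR adjusted p = 0.00163). Without dog 3 the IL4R value was -0.73. IL2RG was there at -0.19 (edgeR adjusted p = 0.0439) and did not pass without dog 2 (-0.14, 0.272), dog 3 (-0.19, 0.0997) or dog 4 (-0.20, 0.0846).

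In CD4 sp cells, 305 cells were GZMB+ (32 to 103 per dog). IL7R was at 549, 612, 501 and 455 CPM in them and at 634, 994, 851 and 871 CPM in GZMB- cells, without overlap (log2 fold change -0.72, SE 0.07, edgeR adjusted p = 1.3e-14). IL2RB was at 272, 417, 386 and 439.9 CPM against 74.4, 170.0, 166 and 231 CPM, also without overlap (1.21, SE 0.09, edgeR adjusted p = 5e-21). In this comparison 9.59% of 9502 genes passed. The myeloid list summed to 3.16 to 29.9 CPM in GZMB+ and 0.568 to 1.98 CPM in GZMB- cells, with CSF1R and S100A12 at 0, and its part in these values was not tested. The regulatory list summed to 235 to 386 CPM in GZMB+ and 167 to 232 CPM in GZMB- cells. Of this list CTLA4 and IKZF2 passed as higher in GZMB+ cells, and 3 genes did not pass. An IL7R UMI was found in 71.5% ± 8.39 of GZMB+ and 83.3% ± 3.29 of GZMB- cells, but in dog 1 in 81.3% and 79.2%. Of the 305 cells, 197 carried neither CCR7 nor FOXP3. In these IL7R was at 659, 636, 403 and 439 CPM in dogs 1 to 4. With none of the 3 transcripts it was at 636, 1055, 935 and 897 CPM, so dog 1 went the other way. With under 20 cells in a dog, this was not tested. GZMB+ CD4 sp cells were deeper than GZMB- cells, with medians of 4229 to 5433 against 3742 to 4089.5 UMIs. More than 1 TRB was seen in 5.39% ± 3.64 of the GZMB+ and 3.77% ± 0.79 of the GZMB- cells. The parts of regulatory cells, depth and doublets in the IL7R and IL2RB values were not tested.

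IL2RA (0.38, SE 0.37, edgeR adjusted p = 0.635), IL2RG (-0.06, SE 0.07, edgeR adjusted p = 0.730) and IL4R (-0.46, SE 0.16, edgeR adjusted p = 0.0563) did not pass in CD4 sp cells. IL4R passed without dog 2 (-0.69, edgeR adjusted p = 0.0458) and with cells of 1 productive TRB (-0.81, edgeR adjusted p = 0.00289). The IL7R log2 fold change of CD4 sp cells was closer to 0 than in CD8A sp cells by 0.85 (SE 0.22), and this interaction did not pass (edgeR adjusted p = 0.0535, in a test that 2.03% of 9372 genes passed). It passed with DESeq2 (0.95, adjusted p = 0.0215) and without dog 3 (1.05, edgeR adjusted p = 0.0435).

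**Figure D3:**
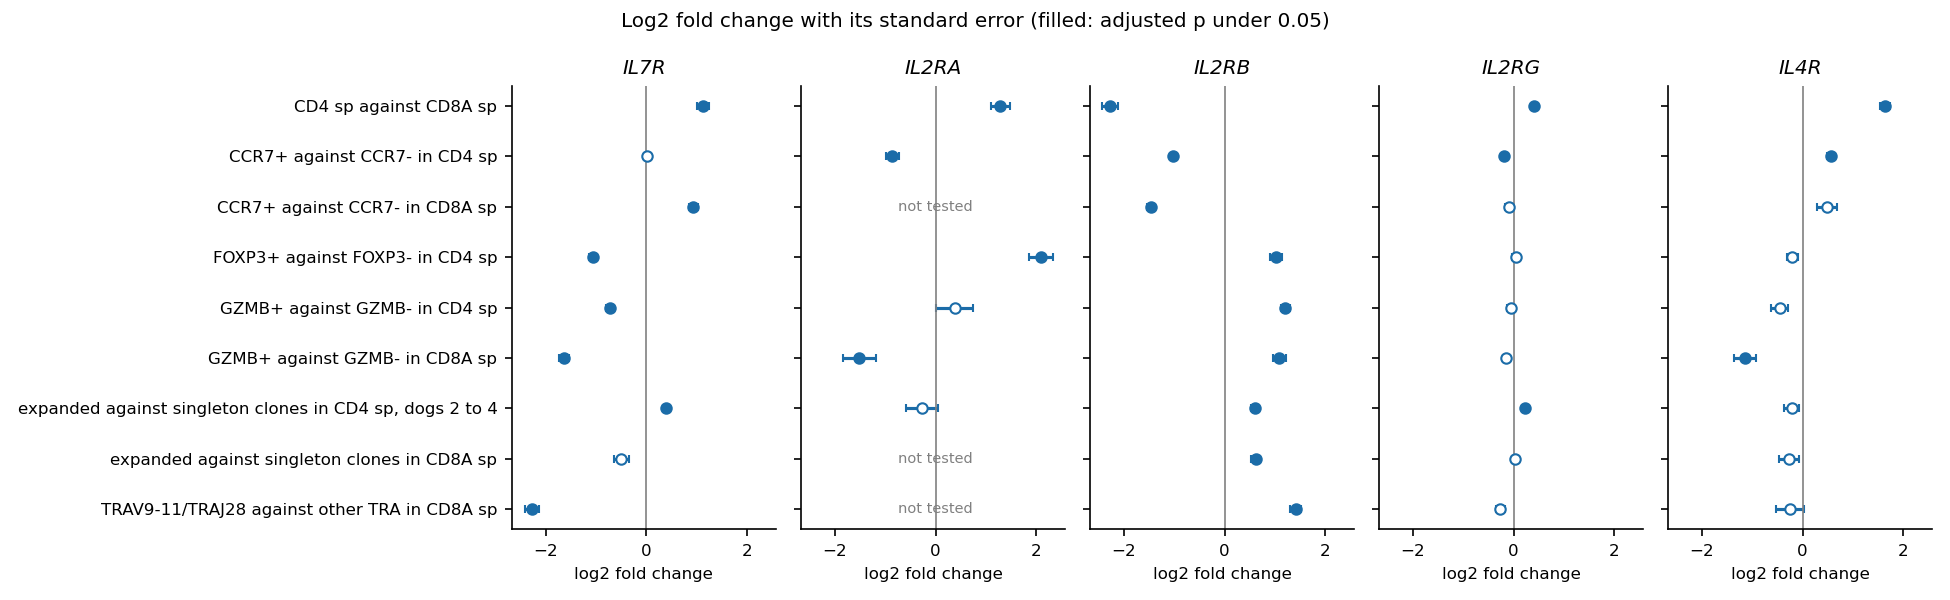
Log2 fold change of each receptor gene (horizontal axes) with its standard error in 9 comparisons, with dogs as replicates. The comparisons share cells of the same dogs, so they are not independent of each other. Filled points had an adjusted p under 0.05; IL7R and IL2RB stand on opposite sides of 0 in 6 comparisons with both filled, and on the same side in expanded CD4 sp clones.

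Chain use was read from the V(D)J libraries of the same cells and not from the gene expression counts. CD8A sp cells with a TRAV9-11/TRAJ28 rearrangement, a pairing of V and J genes that the study met mainly in the cluster it calls MAIT-like and also in other CD8A clusters, were set against CD8A sp cells with another TRA. There were 675 such cells (97 to 244 per dog) and 3897 others. Of 676 TRAV9-11/TRAJ28 rearrangements 669 had a junction of 48 bases, and at 40 positions over 90% of these had the same base. Of the junctions of this length found in most dogs, those in most cells are printed 5' to 3', with the variable positions in capitals. They show the near-invariant frame of the cells gated by these V and J genes:

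junction in 38 cells of 3 dogs: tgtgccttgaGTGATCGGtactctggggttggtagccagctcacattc

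junction in 25 cells of 3 dogs: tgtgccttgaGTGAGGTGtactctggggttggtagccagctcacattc

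junction in 15 cells of 3 dogs: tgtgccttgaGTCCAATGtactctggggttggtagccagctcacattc

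Cells with this rearrangement had less IL7R and more IL2RB than CD8A sp cells with another TRA. IL7R was at 43.3, 81.3, 142 and 94.2 CPM in TRAV9-11/TRAJ28 cells of dogs 1 to 4 and at 274, 558, 567 and 315 CPM in cells with another TRA, without overlap (log2 fold change -2.27, SE 0.14, edgeR adjusted p = 6.6e-09). IL2RB was at 1255, 1813, 2082 and 1377 CPM against 395, 631, 696 and 781 CPM, also without overlap (1.41, SE 0.11, edgeR adjusted p = 5.1e-08). In this comparison 8.3% of 7462 genes passed. IL2RG was lower in 4 of 4 dogs without overlap and did not pass (-0.27, SE 0.09, edgeR adjusted p = 0.0668), IL4R did not pass (-0.25, SE 0.28, edgeR adjusted p = 0.702), and IL2RA, with 9 UMIs, was not tested.

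GZMB was captured in 89.8% ± 7.47 of the TRAV9-11/TRAJ28 cells and 52.4% ± 8.2 of the others. Among GZMB+ cells alone, an alternative chosen after the data had been seen, IL7R was at 37.3, 68.6, 111 and 92.5 CPM against 119, 305, 373 and 164 CPM (log2 fold change -1.64, SE 0.16, edgeR adjusted p = 1.8e-06). IL2RB was at 1301, 1861, 2232 and 1388 CPM against 637, 782, 919 and 864 CPM (1.09, SE 0.09, edgeR adjusted p = 1.5e-07, in a comparison that 6.03% of 6255 genes passed). Both differences were in the same direction in 4 of 4 dogs without overlap. TRAV9-11/TRAJ28 cells had medians of 3299 to 3698 UMIs and the others 3895 to 4286 UMIs.

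**Figure D4:**
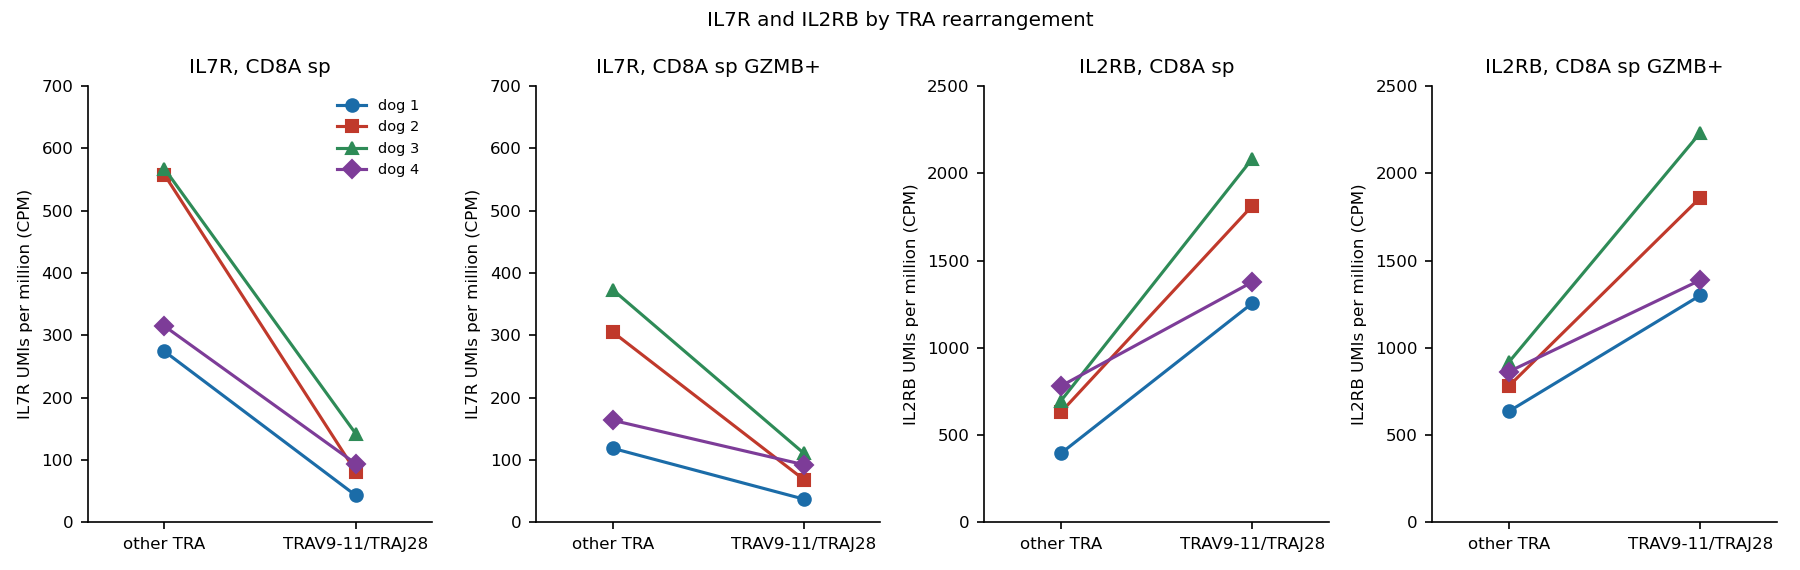
IL7R and IL2RB levels (CPM, linear axes from 0) of each dog, joined by a line, in CD8A sp cells with another TRA and with TRAV9-11/TRAJ28, for all cells and for GZMB+ cells. In each panel all 4 lines run the same way, downward for IL7R and upward for IL2RB.

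Clones were cells of 1 dog with the same single TRB, called expanded from 3 cells and singleton with 1 cell. In CD8A sp cells IL2RB rose in expanded clones, at 826, 887, 1004 and 938 CPM against 432, 726, 570.2 and 596 CPM in singletons, without overlap (log2 fold change 0.61, SE 0.09, edgeR adjusted p = 0.00159, with 5.73% of 8287 genes passing). IL7R was at 138, 517, 475 and 257 CPM in expanded and 308, 493, 545 and 424 CPM in singleton cells, lower in 3 of 4 dogs and higher in dog 2 (-0.50, SE 0.14, edgeR adjusted p = 0.0637). Without dog 2 it passed (-0.69, edgeR adjusted p = 0.0144), as it did with thinned cells (-0.57, edgeR adjusted p = 0.0397) and with clones from 2 cells (-0.48, edgeR adjusted p = 0.0274).

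The GZMB+ share was 72.3% ± 8.33 in expanded and 41.0% ± 10.7 in singleton CD8A sp cells. Among GZMB+ cells neither IL7R (log2 fold change -0.11, SE 0.20, edgeR adjusted p = 0.953) nor IL2RB (0.17, SE 0.08, edgeR adjusted p = 0.720) passed, and 0.0745% of 6713 genes did, 5 in all, against 493 with an unadjusted p under 0.05. Among cells with another TRA, where 5.85% of 7730 genes passed, IL2RB was 0.54 (edgeR adjusted p = 0.000461) and IL7R -0.32 (edgeR adjusted p = 0.0483). The IL7R call was lost without dog 1 (-0.26, edgeR adjusted p = 0.179), dog 2 (-0.39, 0.0725) or dog 4 (-0.24, 0.147).

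In CD4 sp cells dog 1 had 18 expanded cells, under the minimum of 20, so the test used dogs 2 to 4 with 575, 340 and 947 cells, a choice made after the data had been seen. IL7R was at 1114, 1127 and 956 CPM in expanded and 892, 751 and 762 CPM in singleton cells of dogs 2 to 4, without overlap (log2 fold change 0.39, SE 0.06, edgeR adjusted p = 0.000916, with 17.1% of 9309 genes passing). Without the dog as a block the edgeR adjusted p was 0.0596. In dog 1 the levels were 498 and 616 CPM, the other way round, with 39 IL7R UMIs in the expanded cells. With clones counted as expanded from 2 cells, all 4 dogs could be fitted (at least 132 cells per dog and side, 1459 of 9363 genes passing), and IL7R was at 0.30 (SE 0.06, edgeR adjusted p = 0.00679).

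IL2RB was at 248, 241 and 268 CPM in expanded and 148, 153 and 194 CPM in singleton CD4 sp cells of dogs 2 to 4 (log2 fold change 0.60, SE 0.07, edgeR adjusted p = 6.9e-05). IL2RG was also higher in all 3 (0.23, SE 0.06, edgeR adjusted p = 0.0119), but did not pass without dog 2 (0.20, 0.163), without dog 3 (0.20, 0.0729), without the dog as a block (0.23, 0.112) or with DESeq2 (0.23, adjusted p = 0.0652). IL2RA (-0.26, edgeR adjusted p = 0.646) and IL4R (-0.22, edgeR adjusted p = 0.368) did not pass. In these 3 dogs the IL7R log2 fold change of expansion was higher in CD4 sp than in CD8A sp cells by 0.70 (SE 0.18), which did not pass (edgeR adjusted p = 0.117, with 0.339% of 9438 genes passing). With DESeq2 it passed (0.70, adjusted p = 0.0496).

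Other genes of the pathway were followed as a list of 33 receptor chains, ligands, kinases, STATs, feedback regulators, survival genes and regulators of IL7R, of which 30 were in the files. Between CD4 sp and CD8A sp cells 23 were tested, and 13 were higher and 4 lower in CD4 sp cells (13.6% and 13.5% of all genes tested, median log2 fold change 0.36, against 0.0023 over all genes tested). Higher were the receptor chain IL21R (2.23), the ligands IL15 (1.93) and IL2 (1.37), the kinase JAK1 (0.31), STAT5B (0.36) and STAT5A (0.23), the feedback regulators SOCS1 (0.73) and CISH (0.65), the survival genes PIM2 (0.72), BCL2 (0.64) and PIM1 (0.32), and the transcription factors RUNX1 (0.79) and FOXO1 (0.44). FOXO1 is known to activate IL7R. RUNX1 is also on the list as a regulator of IL7R, and neither gene followed IL7R in every comparison. RUNX1 rose with GZMB in CD8A sp cells, where IL7R fell, and fell in expanded CD4 sp clones, where IL7R rose. FOXO1 rose with CCR7 in CD4 sp cells, where IL7R did not pass. IL7R also fell with FOXP3 and with GZMB in CD4 sp cells and in TRAV9-11/TRAJ28 cells. There 0 of 4, 0 of 4 and 0 of 3 tested regulators of the list passed. The part of these regulators in the level of IL7R was not tested. Lower were GFI1 (-1.72), known as a repressor of IL7R, BCL2L1 (-0.66), STAT3 (-0.26) and STAT6 (-0.24). IL2 was at 24.5 ± 10.3 CPM in CD4 sp and 9.48 ± 1.94 CPM in CD8A sp cells.

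With CCR7, 5 genes of the list rose in both lineages, IL21R (0.76 in CD4 sp, 1.05 in CD8A sp), JAK1 (0.16, 0.44), BCL2 (0.28, 0.46), PIM2 (0.27, 1.11) and FOXO1 (0.20, 0.62), and JAK3 (-0.28, -0.43) fell in both. Of 22 tested in CD4 sp cells 5 rose and 3 fell (also IL15RA, -0.82, and CISH, -0.16), with a median of -0.0072 against 0.0054 over all genes, of which 10.1% rose and 13% fell. In CD8A sp cells 6 of 19 rose (also SOCS1, 0.92) and 3 fell (also STAT3, -0.33, and GFI1, -0.68), with a median of 0.16 against 0.0099 over all genes, of which 8.09% rose and 8.66% fell. The interaction passed for PIM2 (-0.77, edgeR adjusted p = 0.0189) and for no other gene of the list.

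With GZMB in CD8A sp cells, 2 of 21 tested rose, GFI1 (1.10) and RUNX1 (0.55), and 7 fell, IL2 (-2.12), IL21R (-0.90), PIM2 (-0.81), FOXO1 (-0.51), CISH (-0.39), BCL2 (-0.37) and JAK1 (-0.31). The median was -0.27 against -0.014 over all genes, of which 9% rose and 9.02% fell. GFI1 was at 36.3 ± 7.19 CPM in GZMB+ and 17.4 ± 4.13 CPM in GZMB- cells, higher in 4 of 4 dogs, and FOXO1 at 32.2 ± 5.35 and 45.5 ± 10.0 CPM, lower in 4 of 4. In CD4 sp cells 0 of 22 rose and 4 fell with GZMB, CISH (-0.71), PIM1 (-0.49), BCL2 (-0.47) and JAK1 (-0.28), with a median of -0.30 against -0.036 (5.91% of all genes rose and 3.67% fell).

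With FOXP3 in CD4 sp cells, JAK3 rose (0.30) and IL2 (-0.75), CISH (-0.57), BCL2 (-0.49) and JAK1 (-0.22) fell, 5 of 22 tested, with a median of -0.22 against -0.025 over all genes, of which 8.07% rose and 5.05% fell. CISH, a target of STAT5 that dampens cytokine signals, was at 81.4 ± 17.2 CPM in FOXP3+ and 123 ± 15.3 CPM in FOXP3- cells. In TRAV9-11/TRAJ28 cells 0 of 15 rose and CISH (-0.86) and BCL2 (-0.77) fell, with a median of -0.0076 against -0.00046 (4.52% of all genes rose and 3.78% fell). BCL2, the survival gene known to be maintained by IL-7, was there at 32.2 ± 10.7 CPM against 51.3 ± 0.813 CPM, lower in 4 of 4 dogs.

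In expanded CD8A sp clones 2 of 21 tested rose, GFI1 (0.85) and STAT3 (0.32), and PIM2 fell (-0.77), with a median of -0.00045 against 0.0029 (2.5% of all genes rose and 3.23% fell). In expanded CD4 sp clones of dogs 2 to 4, 5 of 22 rose, BCL2L1 (1.5), SOCS2 (0.88), BCL2 (0.58), CISH (0.45) and STAT3 (0.30), and 3 fell, IL21R (-1.44), RUNX1 (-0.59) and PIM2 (-0.42), with a median of -0.036 against -0.0081 (9.03% of all genes rose and 8.05% fell). BCL2 was lower in expanded cells of 1 of these 3 dogs.

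**Figure D5:**
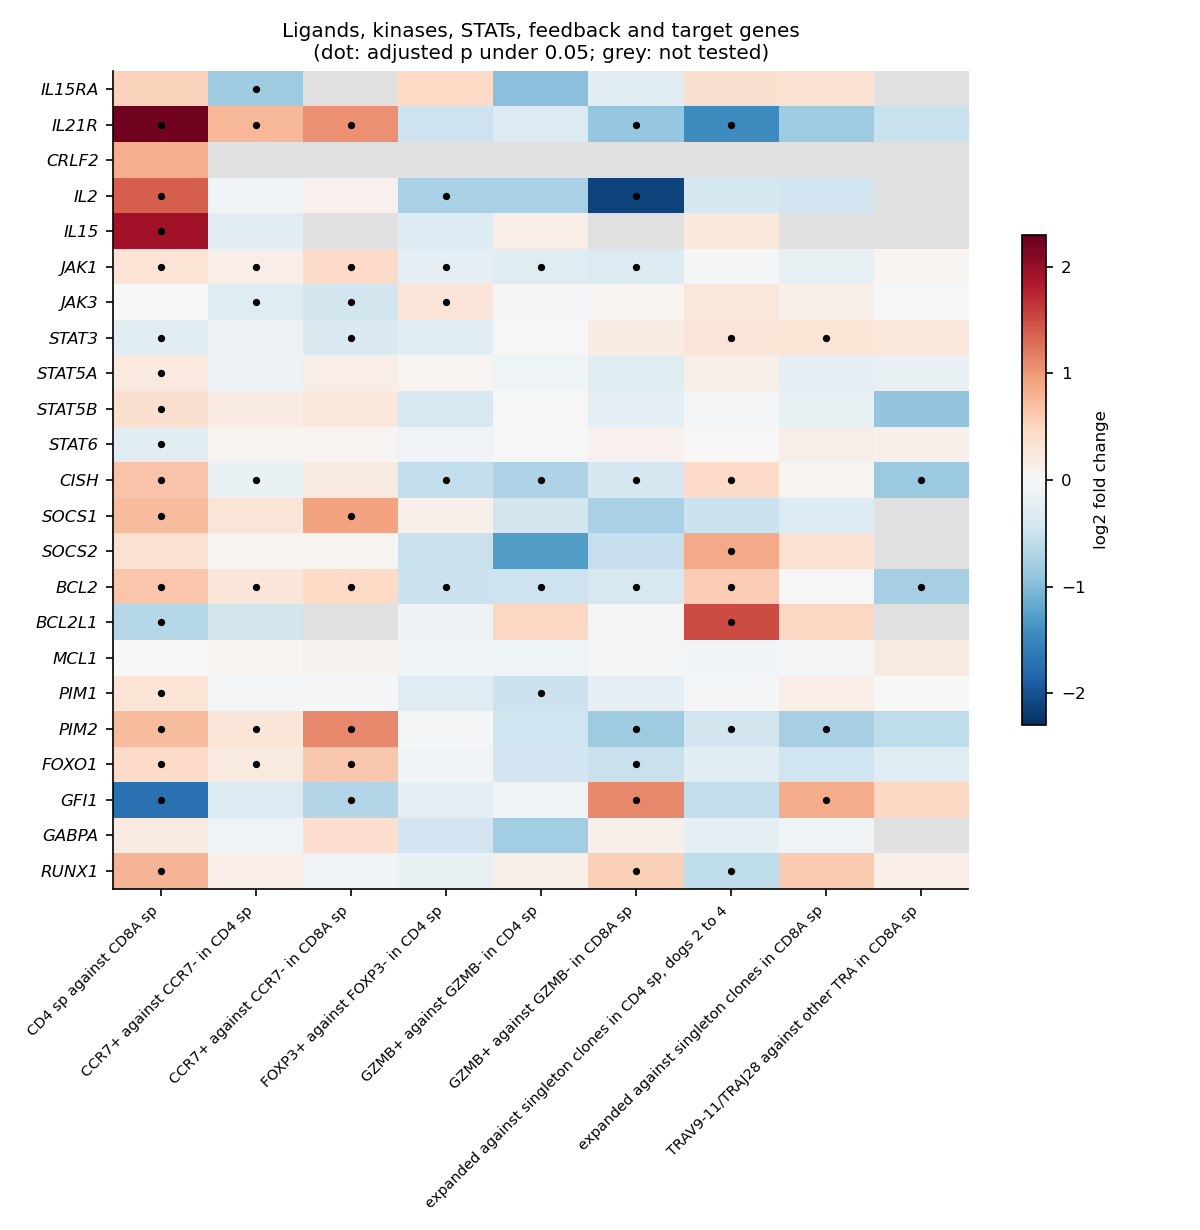
Log2 fold changes (colour) of the genes of the list that were tested at least once, in 9 comparisons, with a dot where the adjusted p was under 0.05 and grey where the gene was not tested. BCL2 and CISH carry a dot with opposite signs in expanded CD4 sp clones and in GZMB+ and FOXP3+ CD4 sp cells, and GFI1 is negative in CD4 sp against CD8A sp cells and positive in GZMB+ CD8A sp cells.

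The genes most like each member were sought over 24 sums (6 disjoint classes in 4 dogs, centred within dogs), among 6471 genes with a mean of at least 10 CPM. Sums of 1 dog share a library, and r is given as a description. Nearest to IL7R were CD52 (r = 0.946), SPINT2 (0.944) and FAM114A1 (0.926), and nearest to IL2RB were CLNK (0.951), PLEKHF1 (0.950) and SDF2L1 (0.948). IL2RA was nearest to GATA3 (0.952), IFI30 (0.934) and TPM4 (0.929), IL2RG to LYST (0.925), ANXA1 (0.910) and ZBTB7B (0.905), and IL4R to SERPINB1 (0.895), DMWD (0.884) and SAMHD1 (0.882). Among the members, IL7R and IL2RB ran most strongly against each other (r = -0.815) and IL2RA and IL2RG most closely together (r = 0.799). IL2RA met the limit of 10 CPM with 35.3 CPM in CD4 sp cells with FOXP3 only. It was at 1.73 to 10.7 CPM in the other classes used, from 5 UMIs in CD8A sp cells with CCR7 only. How far the r values of IL2RA rest on the FOXP3 class was not tested.

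The level of IL7R also moved with the depth of the cells. Among CD4 sp cells it was 1693 ± 486 CPM in cells of 500 to 2000 UMIs and 826 ± 138, 828 ± 145 and 688 ± 133 CPM in cells from 2000, 4000 and 6000 UMIs up. In CD8A sp cells it was 464 ± 220.0, 258 ± 95.1, 459 ± 164 and 486 ± 163 CPM in the same bins, so the mean was higher in CD4 sp cells in each bin. IL2RB was 1089 ± 147, 973 ± 141, 676 ± 116 and 564 ± 25.6 CPM in CD8A sp cells and 333 ± 131, 142 ± 69.6, 153 ± 61.0 and 200.4 ± 64.0 CPM in CD4 sp cells, higher in CD8A sp cells in each bin. The part of depth in these levels was not tested.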

How the data were processed

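The authors aligned reads of 4 gene expression libraries to CanFam 3.1 with Cell Ranger 5.0.1 (per the submitters' processing notes) and deposited raw UMI counts per gene and barcode. The deposited counts were used without other scaling, and the V(D)J files gave the chains of each cell. The gene list of dog 1 has 27980 lines for 20257 rows, so the list of dog 2 was used throughout. Cells with 500 to 20000 UMIs and at most 10% mitochondrial counts were kept (19 cells over 20000 UMIs and 169 to 414 per dog over the mitochondrial limit were removed).

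Sums per dog and gate were fitted with edgeR 4.0.16 (quasi-likelihood, TMM, filterByExpr, dog as a term, R 4.3.3), only where each dog had at least 20 cells on both sides, with gate genes left out. The dog pairs the sums: deviations of sums of the same dog from the gate means correlated at 0.177 to 0.749. Those of different dogs correlated at most at 0.0257, but taking deviations from a mean over the dogs by itself lowers these values. The total was 26904346 to 35661623 UMIs per library, and UMI totals are given where they limit the precision. A member at 0 UMIs was not given a fold change. The script was tested on simulated counts. DESeq2 1.42.0, no dog term, other filters, thinned cells and leaving out each dog were tried.

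Named genes were the members, genes of the pathway list that passed, and for each member the 3 genes with the most similar pattern (Pearson's r of log2 CPM with a prior count of 2). Members, gates and lists were chosen with earlier results of these data known. Comparisons within cells of 1 kind (none of the 3 transcripts, 1 transcript only, GZMB+, another TRA) and those of dogs 2 to 4 were added after the data had been seen. Where the study tested cells, sums per dog were tested here. Sequences of proteins and promoters were not used here. Some genes of the marker lists are not reported here.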

Additional observations from a re-analysis of the deposited data

Results flagged for a closer look

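Of 80 levels of a member in a gate, 3 had 1 dog far from the other 3 by Dixon's test, where chance gives about 1 in 20. IL2RA in GZMB+ CD8A sp cells was highest in dog 2 at 3.68 CPM (12 UMIs), with the other dogs at 1.88 to 2.03 CPM. In CCR7+ CD8A sp cells dog 1 was lowest both for IL2RB at 178 CPM (86 UMIs, the others 311 to 336 CPM) and for IL7R at 441 CPM (213 UMIs, the others 669 to 709 CPM).

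The CCR7 difference of IL7R differed between CD4 sp and CD8A sp cells, with an interaction of -0.89 on the log2 scale that passed the edgeR test. IL2RB was higher in FOXP3+ than FOXP3- CD4 sp cells of every dog, by 151 CPM on average, and lower in FOXP3+ CD8A sp cells of every dog. This difference between the lineages was not tested, since dog 1 had 1 FOXP3+ CD8A sp cell.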

How the results depend on the processing

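Of 698 values of a log2 fold change of a member under an alternative, 632 kept their direction and their side of the threshold, 19 passed and 21 ceased to pass in the same direction, and 26 changed sign. The causes of these changes were not tested.

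Without the dog as a replicate block, fewer genes passed: 1428 in place of 2744 for CD4 sp against CD8A sp, 5 in place of 2232 for CCR7 in CD4 sp (0 in place of 4 members), 764 in place of 1379 for CCR7 in CD8A sp, 479 in place of 1252 for FOXP3, 190 in place of 911 for GZMB in CD4 sp, 673 in place of 1614 for GZMB in CD8A sp, 100 in place of 475 for expansion in CD8A sp, 338 in place of 619 for TRAV9-11/TRAJ28, 669 in place of 1590 for expansion in CD4 sp (1 in place of 3 members, IL7R at 0.39), 20 in place of 246 for the CCR7 interaction (0 in place of 1 member, IL7R at -0.88), 4 in place of 190 for the GZMB interaction and 0 in place of 32 for the expansion interaction. Other calls of members stayed as they were without the block, apart from those given beside their results.

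With DESeq2, 972 genes passed for CCR7 in CD4 sp, 804 for CCR7 in CD8A sp, 735 for FOXP3, 449 for GZMB in CD4 sp, 801 for GZMB in CD8A sp, 193 for expansion and 407 for TRAV9-11/TRAJ28 in CD8A sp and 530 for expansion in CD4 sp. It called 2 members for the GZMB interaction (IL7R at 0.95) in place of 0 and 1 for the expansion interaction (IL7R at 0.70) in place of 0. Without TMM, IL7R by CCR7 in CD4 sp was -0.016.

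With cells thinned to 2000 UMIs, 978 genes passed for CCR7 in CD4 sp, 766 for CCR7 in CD8A sp, 143 for FOXP3 (IL2RG at -0.10, IL4R at 0.21), 1027 for GZMB in CD8A sp, 233 for expansion in CD8A sp (2 members, IL7R at -0.57, IL2RG at -0.044), 321 for TRAV9-11/TRAJ28, 145 for the CCR7 interaction (IL2RG at 0.060, IL4R at -0.26), 729 for expansion in CD4 sp and 50 for its interaction, and 2 of 5 members had the same highest class. The highest class of IL7R, IL2RG and IL4R changed, each time to or from CD8A sp cells with FOXP3 only, which rested on 36 cells of 3 dogs before thinning.

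Without a filter on low counts, 833 genes passed for expansion in CD8A sp (2 members, IL7R at -0.49), 375 for the CCR7 interaction (2 members), 402 for the GZMB interaction (2 members, IL7R at 0.79) and 207 for the expansion interaction (1 member, IL7R at 0.68). With 2 UMIs for a positive cell, 275 passed for expansion in CD8A sp and 147 for the CCR7 interaction. With clones expanded from 2 cells, IL7R in CD8A sp was -0.48 (2 members passed), and 15 genes passed for the expansion interaction (IL2RA at 0.11). With cells of 1 productive TRB, 1 member passed for the GZMB interaction (IL2RB at -0.014).

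Among alternatives added after the data had been seen, cells with none of the 3 transcripts gave 1161 genes for CD4 sp against CD8A sp. CCR7 only against none of the 3 gave IL7R at -0.023 in CD4 sp, 875 genes in CD8A sp (1 member, IL7R at 0.19, IL4R at -0.063) and 34 genes for the interaction (0 members, IL7R at -0.19, IL2RA at 0.83 in place of -1.39, IL2RG at 0.023). FOXP3 only gave 799 genes (IL2RG at -0.032, IL4R at 0.019). GZMB+ cells gave 5 genes for expansion (0 members) and 377 for TRAV9-11/TRAJ28 (IL4R at 0.34), and cells with another TRA gave 2 members for expansion (IL7R at -0.32).

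Leaving out each dog in turn gave 1335 to 2303 genes for CCR7 in CD4 sp, 859 to 1345 for CCR7 in CD8A sp, 609 to 1188 for FOXP3 (IL2RG -0.0077 to 0.086), 491 to 986 for GZMB in CD4 sp, 1068 to 1447 for GZMB in CD8A sp, 257 to 456 for expansion in CD8A sp (1 to 2 members, IL7R -0.69 to -0.32, IL2RG -0.026 to 0.073), 79 to 223 for the CCR7 interaction (IL4R -0.20 to 0.33), 33 to 187 for the GZMB interaction (0 to 1 members, IL7R 0.70 to 1.05), 514 to 1406 for expansion in CD4 sp (IL4R -0.39 to 0.11, IL2RA -0.59 to 0.32) and 13 to 29 for its interaction (IL2RB -0.16 to 0.20, IL2RA -0.67 to 0.73, IL4R -0.29 to 0.50), and IL4R by TRAV9-11/TRAJ28 ran from -0.55 to 0.23. Of these counts, those moved by over 1.5 times without dog 2 were CCR7 (1335 in CD4 sp, 879 in CD8A sp, 93 for the interaction), FOXP3 (609), GZMB (491 in CD4 sp, 1070 in CD8A sp, 33 for the interaction) and expansion (292 in CD8A sp, 514 in CD4 sp, 13 for the interaction). Without dog 3 they were CCR7 (1481 in CD4 sp, 859 in CD8A sp, 79 for the interaction), GZMB (1068 in CD8A sp, 39 for the interaction) and expansion in CD8A sp (257). Without dog 1 it was expansion in CD8A sp (265), and without dog 4 the GZMB (108) and expansion (21) interactions.

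With under 20 cells in a dog, FOXP3 in CD8A sp with its interaction, expansion in CD4 sp with dog 1 for clones from 3 cells, GZMB in CD4 sp and its interaction with 2 UMIs or thinned cells, and FOXP3 in CD4 sp with 2 UMIs could not be fitted. The precision of IL2RA is set by its 1514 UMIs. Doublets were not removed.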

Other observations

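Cells with neither CD4 nor CD8A UMIs (dn, 11510 cells, 36.1% of those kept) and with both (dp, 725 cells, 2.27%) enter no comparison above. The study could not tell true double-negative T cells from cells whose CD4 transcript was not captured. The dn gate has the same limit, so its levels are not those of a defined double-negative population. In dn cells IL7R was at 677, 1048, 909.6 and 929 CPM in dogs 1 to 4 and IL2RA at 16.2, 20.2, 19.2 and 22.8 CPM, above the CD4 sp value of the same dog in 4 of 4 dogs for both genes. IL2RB was at 111, 209.0, 219 and 233 CPM there, and dn cells were shallower, with medians of 3232 to 3625 UMIs. In dp cells IL7R was at 569, 775, 874 and 641 CPM and IL2RB at 339, 452, 386 and 497 CPM, the latter between the CD4 sp and CD8A sp values of the same dog in 4 of 4 dogs. More than 1 productive TRB was seen in 21.6% ± 4.13 of dp cells, whose medians were 5418 to 5955 UMIs, and the part of doublets in their levels was not tested.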
